A study of Mus musculus with 5 samples.

Results

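The genes described here encode the nuclear subunits of the mitochondrial respiratory chain and of ATP synthase. They were chosen by symbol: every gene starting with Nduf, Uqcr, Cox4, Cox5, Cox6, Cox7, Cox8 or Atp5, plus Sdha, Sdhb, Sdhc and Sdhd, with a log2 CPM (counts scaled to library size) of at least 1 in all 4 comparison tables the authors deposited. Of 92 genes with such a symbol, 89 reached that minimum, among 13305 genes that reached it and 21590 genes listed in all. Ndufb4, Cox7b2 and Cox8c did not reach it. Grouped by symbol, the 89 genes comprise 36 subunits of complex I, 4 of complex II, 8 of complex III, 15 of complex IV, 15 of ATP synthase and 11 assembly factors and other genes that share the prefixes. Ndufa4 was counted with complex I for its Nduf symbol, and the complex that holds its protein was not checked.

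The study profiled whole lungs of Cldn4 KO and WT mice, which lack or carry the tight junction gene claudin 4, by RNA sequencing. The groups were KO_VILIhigh (Cldn4 KO, ventilated, injury above that of WT), KO_VILIlow (Cldn4 KO, ventilated, injury like that of WT), WT_VILI (WT, ventilated), KO_noVILI (Cldn4 KO, unventilated) and WT_noVILI (WT, unventilated). All 5 groups shared a mixed background of 129S6, C57BL/6 and BALB/c. Ventilated animals received 2 h of ventilation at 40 cmH2O, which produces ventilator-induced lung injury (VILI); ages and sexes are not given in the sources used here. Per the design text each group was sequenced in duplicate, so 2 libraries stand behind each group level, although the labels carry only 1 record for each. The 2 ventilated KO groups were separated by their degree of injury, so a difference between them is a difference between animals sorted by outcome.

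The respiratory chain sits in the inner mitochondrial membrane. Complexes I and II feed electrons from NADH and succinate to ubiquinone, complex III passes them to cytochrome c, and complex IV hands them to oxygen; the proton gradient built on the way drives ATP synthase. Most subunits are encoded in the nucleus and a small core in the mitochondrial genome, and several complex IV subunits exist as a widespread form and a form restricted to heart and skeletal muscle, lung or testis. In the lung, alveolar type 2 cells, ciliated cells and the cardiac muscle around the pulmonary veins are rich in mitochondria. None of the mitochondrially encoded subunits was among the genes listed, so only nuclear genes are described.

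Levels by group were rebuilt here from the deposited fold changes and mean abundances and are in CPM, which is not corrected for gene length, so each gene is compared with itself across groups. Cldn4 itself stood at 0.122, 0.0211 and 0.134 CPM in KO_VILIhigh, KO_VILIlow and KO_noVILI lungs, against 140 CPM in WT_VILI and 8.98 CPM in WT_noVILI lungs, as the labels state. Xist, the transcript of the inactive X chromosome, stood at 2.64, 4.39 and 6.13 CPM in KO_VILIhigh, KO_VILIlow and WT_VILI lungs, against 504 and 890 CPM in KO_noVILI and WT_noVILI lungs. The Y-linked Ddx3y showed the opposite order, with 91.9, 108 and 115 CPM in those ventilated groups and 0.177 and 0.0984 CPM in the unventilated ones. Ventilation and this difference in sex-linked transcripts cannot be told apart in any comparison of ventilated with unventilated lungs. Between KO_noVILI and WT_noVILI lungs Xist also differed, with a log2 fold change of -0.82 in the authors' deposited table (edgeR adjusted p = 0.00339). In whole lung, fewer cells of a type and less RNA per cell cannot be told apart. A summed level of 14 markers of lung epithelium and endothelium lay between 55393 and 56845 CPM in the 5 groups. Only 12 of the 14 had a deposited fold change other than exactly 0, in each of the authors' deposited tables. The rebuilt levels of the rest are equal in all groups by construction, so the narrow range of the sum is partly fixed in advance. Single markers varied within that sum, with log2 fold changes from -0.68 to 0.36 in KO_noVILI against WT_noVILI lungs. The authors' deposited tables called 1 of the 14 lower in KO_noVILI, 1 higher in WT_VILI, 1 lower in KO_VILIhigh and none in KO_VILIlow. Of all genes, 4.85%, 13.5%, 2.22% and 1.33% were called in those comparisons. Markers of ciliated cells, 8 in number, varied more: they summed to 241 CPM in KO_VILIhigh, 172 CPM in KO_VILIlow, 222 CPM in WT_VILI, 242 CPM in KO_noVILI and 339 CPM in WT_noVILI lungs. Against WT_noVILI, 3 of the 8 were called lower in WT_VILI (median log2 fold change -0.41) and 3 in KO_noVILI (median -0.49), in the authors' deposited tables. Of all genes, 6.4% were called lower in WT_VILI, and 4.85% were called in either direction in KO_noVILI. The part of ciliated cells in the levels of the respiratory chain was not tested.

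RefSeq (GRCm38.p6) held a promoter, the 250 bases before to 50 bases after a transcription start, for 74 of the 89 genes. NRF1 is a transcription factor known to drive nuclear genes of the respiratory chain, and its core motif GCATGCGC occurred, on either strand, in 12 of these 74 genes (16.2%), against 5.56% of 10517 genes at the same minimum and 3.05% of all 27025 genes with a promoter. The YY1 motif AAGATGGC occurred in 11 of 74 genes (14.9%), against 5.03% and 3.19%. CCGGAAGT, the motif of ETS factors such as GABP, occurred in 5 of 74 genes (6.76%), against 8.58% and 4.31%. NRF1 matches on both strands overlap where the letters GCGCATGCGC stand. These are counts of letters with no test. The windows from 100 bases before to 30 bases after the start, in which capitals mark matches, were picked to show each motif: Atp5g2 and Sdhb carry the NRF1 motif, Uqcr11 the ETS and NRF1 motifs, Atp5j the YY1 motif and Cox8a the ETS motif on the opposite strand. The last windows belong to the muscle isoforms Cox8b and Cox7a1, which had the largest fold changes of KO_VILIlow against WT_VILI lungs, and hold none of the 3 motifs.
Atp5g2, chr15:102671018-102671147, minus strand: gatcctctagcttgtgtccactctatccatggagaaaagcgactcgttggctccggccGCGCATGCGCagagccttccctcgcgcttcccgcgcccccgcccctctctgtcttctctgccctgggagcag
Sdhb, chr4:140961171-140961300, plus strand: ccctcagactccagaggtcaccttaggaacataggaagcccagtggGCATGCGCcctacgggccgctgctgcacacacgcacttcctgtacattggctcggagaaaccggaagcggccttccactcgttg
Uqcr11, chr10:80406792-80406921, minus strand: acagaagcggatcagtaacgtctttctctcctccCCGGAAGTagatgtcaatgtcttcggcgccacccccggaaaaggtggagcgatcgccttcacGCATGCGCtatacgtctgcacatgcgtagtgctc
Atp5j, chr16:84834947-84835076, minus strand: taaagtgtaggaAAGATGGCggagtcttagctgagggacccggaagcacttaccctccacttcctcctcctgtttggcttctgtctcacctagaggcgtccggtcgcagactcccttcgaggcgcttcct
Cox8a, chr19:7217587-7217716, minus strand: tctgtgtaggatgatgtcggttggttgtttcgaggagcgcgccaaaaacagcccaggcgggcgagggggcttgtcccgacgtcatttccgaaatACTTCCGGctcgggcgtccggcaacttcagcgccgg
Cox8b, chr7:140900417-140900546, minus strand: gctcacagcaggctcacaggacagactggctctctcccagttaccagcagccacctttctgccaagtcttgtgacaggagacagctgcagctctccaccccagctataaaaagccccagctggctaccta
Cox7a1, chr7:30184071-30184200, plus strand: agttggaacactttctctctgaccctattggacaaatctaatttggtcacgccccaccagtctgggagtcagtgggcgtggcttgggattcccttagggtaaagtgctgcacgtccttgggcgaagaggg

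Levels of the respiratory chain genes lay close together in the 5 groups. The summed level of the 89 genes was 4922 CPM in KO_VILIhigh, 4804 CPM in KO_VILIlow, 4354 CPM in WT_VILI, 4664 CPM in KO_noVILI and 4725 CPM in WT_noVILI lungs. WT_VILI was the lowest of the 5 groups, and KO_VILIhigh the highest. For 81 of the 89 genes (91.0%) the highest group stood less than 1.5-fold above the lowest, against 58.1% of all genes at the minimum, and the median ratio was 1.25 against 1.43. Among genes with a log2 CPM of at least 4, the shares were 98.5% of 65 respiratory chain genes and 70.8% of all 8474 genes. Ribosomal protein genes at the minimum of 1 lay nearly as close: 89.3% of cytosolic and 89.2% of mitochondrial ones stayed within 1.5-fold. WT_VILI was the lowest group for 47 of the 89 genes (52.8%), against 16.6% of all genes. KO_VILIhigh was the highest group for 39 genes (43.8%), against 23.1% of all genes, and KO_VILIlow for 24 genes (27.0%), against 13.0%. Cytosolic ribosomal protein genes had WT_VILI as the lowest group for 68.0% of 75 genes, and mitochondrial ribosomal protein genes for 28.4% of 74.

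**Figure D1:**
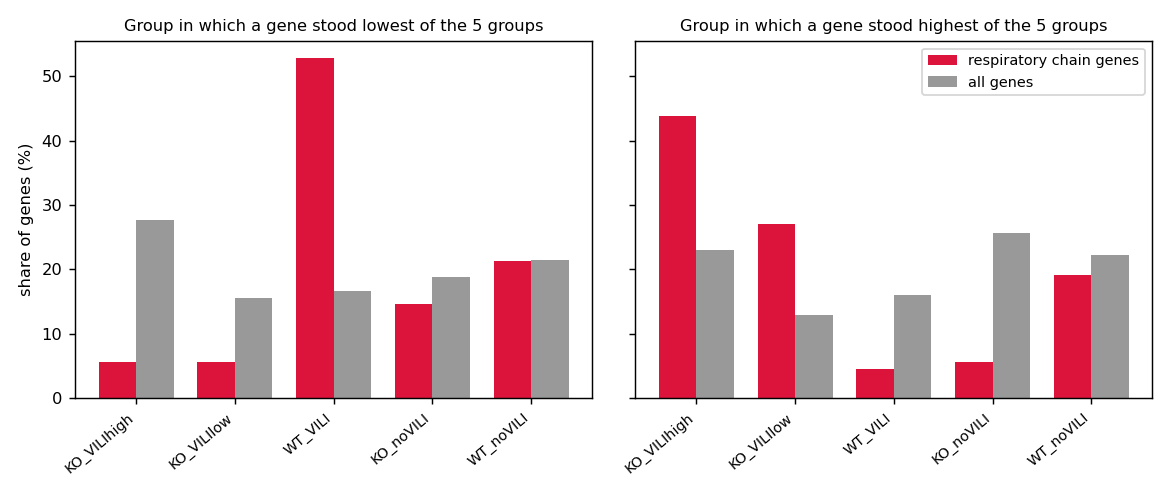
Share of genes (%, vertical axis) for which each of the 5 groups held the lowest (left panel) or highest (right panel) rebuilt level, for the 89 respiratory chain genes (red) and all 13305 genes at the minimum (grey). WT_VILI was lowest for 52.8% of the respiratory chain genes and 16.6% of all genes, and KO_VILIhigh was highest for 43.8% and 23.1%.

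With ventilation, KO lungs stood slightly above WT lungs across most of the chain, and no single gene passed the threshold. In the authors' deposited table for KO_VILIhigh against WT_VILI, 75 of 88 genes with a fold change were higher (85.2%), with a median log2 fold change of 0.21 and quartiles of 0.09 and 0.32. In the authors' deposited table for KO_VILIlow against WT_VILI, 73 of 89 genes were higher (82.0%), with a median of 0.16 and quartiles of 0.07 and 0.24. All genes at the minimum had a median of -0.01 in both of the authors' deposited tables, with 48.8% and 48.2% higher. At an adjusted p under 0.05, none of the 89 genes was called in the authors' deposited table for KO_VILIhigh, where 2.22% of all genes were called, and none in that for KO_VILIlow, where 1.33% were called. At an unadjusted p under 0.05 the edgeR tests of the authors' deposited tables gave 4 higher and 0 lower genes in KO_VILIhigh and 6 higher and 0 lower in KO_VILIlow. Both comparisons use the same WT_VILI libraries, so a deviation of that group enters both.

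Without ventilation, the respiratory chain of KO lungs was centred on that of WT lungs. In the authors' deposited table for KO_noVILI against WT_noVILI, 44 of 86 genes were higher (51.2%), the median log2 fold change was 0.0034, and the quartiles were -0.08 and 0.09. None of the 89 genes was called there by the authors' deposited table (adjusted p under 0.05), where 4.85% of all genes were called; 2 higher and 2 lower genes had an unadjusted p under 0.05. In WT lungs, ventilation went with slightly lower values: 30 of 88 genes were higher (34.1%) in the authors' deposited table for WT_VILI against WT_noVILI, with a median of -0.08 and quartiles of -0.20 and 0.05, beside a median of -0.03 and 47.2% higher for all genes. One gene, Cox4i2, was called in that table, as higher, where 13.5% of all genes were called, 7.12% as higher and 6.4% as lower. At an unadjusted p under 0.05, the authors' deposited table gave 2 higher and 5 lower respiratory chain genes. By the authors' deposited edgeR p-values, unadjusted p under 0.05 held for 4.49% of the chain and 11.8% of all genes in KO_VILIhigh, and for 6.74% and 7.25% in KO_VILIlow, against WT_VILI lungs. The shares were 7.87% of the chain and 25.9% of all genes for WT_VILI, and 4.49% and 17.1% for KO_noVILI, against WT_noVILI lungs in the authors' deposited tables.

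**Figure D2:**
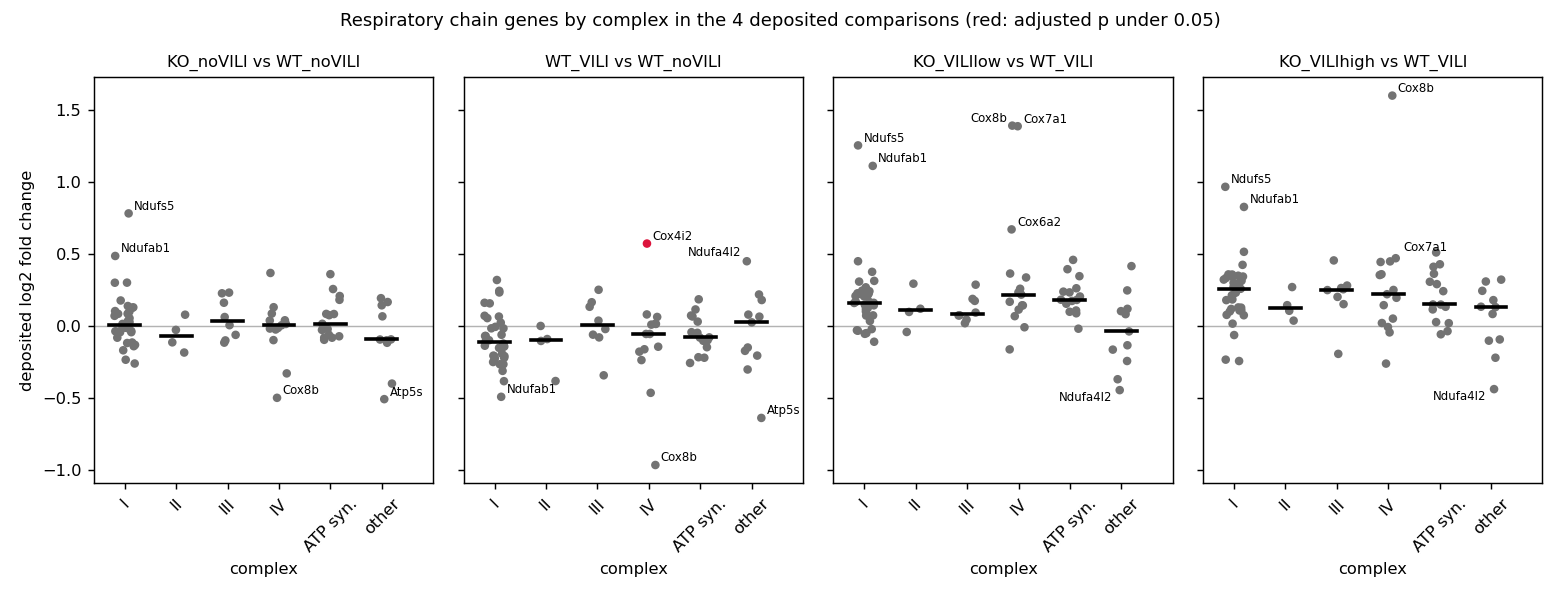
Deposited log2 fold changes (vertical axis) of the respiratory chain genes in the 4 comparisons, by complex (horizontal axis); each point is a gene, each black bar the median of its complex, and genes with a deposited fold of exactly 0 are left out. Medians lie near 0 in KO_noVILI against WT_noVILI lungs and above 0 for complexes I to IV and ATP synthase in both ventilated KO groups; Cox4i2 is the one gene with an adjusted p under 0.05 (red).

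The difference between KO and WT lungs with ventilation minus that without it was derived from the deposited values. Its median over the respiratory chain genes was 0.22 on the log2 scale for KO_VILIhigh (72 of 85 genes positive) and 0.17 for KO_VILIlow (71 of 86 genes positive), beside medians of -0.04 and -0.02 for all genes. None of the 89 genes was called in either (normal approximation, Benjamini-Hochberg adjusted p under 0.05), where 1.53% and 1.09% of all genes were called. Within KO lungs, the derived median was 0.11 for KO_VILIhigh against KO_noVILI (60 of 84 genes positive) and 0.07 for KO_VILIlow against KO_noVILI (58 of 85 genes positive). Again none of the respiratory chain genes was called, beside 3.65% and 3.29% of all genes. Between the 2 injury levels, KO_VILIhigh against KO_VILIlow, the derived median was 0.02, with 52 of 88 genes positive and none called, where 0.128% of all genes were called. At unadjusted p under 0.05 the derived test of the KO_VILIhigh difference of differences gave 1 respiratory chain gene (1.12%), against 8.55% of all genes. That of KO_VILIlow gave 4 (4.49%), against 5.11% of all genes. The remaining contrasts gave 0 respiratory chain genes. Their shares of all genes were 10.9% (KO_VILIhigh against KO_noVILI), 9.56% (KO_VILIlow against KO_noVILI) and 2.04% (KO_VILIhigh against KO_VILIlow).

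Complex I, the NADH dehydrogenase and the largest complex of the chain, followed this pattern. The 36 genes counted to it by symbol summed to 1366 CPM in KO_VILIhigh, 1322 CPM in KO_VILIlow, 1178 CPM in WT_VILI, 1274 CPM in KO_noVILI and 1270 CPM in WT_noVILI lungs. WT_VILI was the lowest group for 23 of them. Against WT_VILI, 32 of 35 subunits were higher in KO_VILIhigh (median log2 fold change 0.26) and 30 of 36 in KO_VILIlow (median 0.16), in the authors' deposited tables. For WT_VILI against WT_noVILI, 9 of 36 were higher in the authors' deposited table (median -0.12). Ndufs1, which holds iron-sulfur clusters of the electron input arm and was named for its role after its values were seen, varied little. It had 65.4 CPM in KO_VILIhigh, 63.8 CPM in KO_VILIlow, 60.8 CPM in WT_VILI, 61.6 CPM in KO_noVILI and 66.9 CPM in WT_noVILI lungs. Ndufa6, an accessory subunit chosen after its values were seen, had 44.2 CPM in KO_VILIhigh, 44.7 CPM in KO_VILIlow, 41.0 CPM in WT_VILI, 48.5 CPM in KO_noVILI and 53.5 CPM in WT_noVILI lungs. Its log2 fold change in WT_VILI against WT_noVILI lungs was -0.38 in the authors' deposited table and did not pass (edgeR adjusted p = 0.105).

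The largest fold changes in complex I came from 2 subunits of low level. Ndufs5, an accessory subunit of the membrane arm (Entrez 595136), stood at 5.91 CPM in KO_VILIhigh, 7.22 CPM in KO_VILIlow, 3.03 CPM in WT_VILI, 6.09 CPM in KO_noVILI and 3.55 CPM in WT_noVILI lungs. All 3 KO groups lay above both WT groups. The log2 fold changes in the authors' deposited tables were 0.96 in KO_VILIhigh (edgeR adjusted p = 0.57), 1.25 in KO_VILIlow (adjusted p = 0.0894) and 0.78 in KO_noVILI (adjusted p = 0.365), so none passed the threshold. Ndufab1, the mitochondrial acyl carrier protein that is also a complex I subunit (Entrez 70316), had 5.88 CPM in KO_VILIhigh, 7.16 CPM in KO_VILIlow, 3.32 CPM in WT_VILI, 6.53 CPM in KO_noVILI and 4.67 CPM in WT_noVILI lungs, the same order of genotypes. Its log2 fold changes were 0.82, 1.11 and 0.48 in the authors' deposited tables for those KO groups (edgeR adjusted p = 0.83, 0.386 and 0.681). RefSeq names a pseudogene after each of these genes, as it does for Atp5c1, Atp5k, Atp5l, Cox5b, Cox7c, Ndufa12 and Uqcrh. How the authors counted reads that match several places is not given in the sources used here. The values of at least these 9 genes are therefore uncertain. Pseudogenes with other names were not searched for, and the part of shared reads was not tested. Ndufc2 had the third highest fold change in WT_VILI lungs, 0.32 in the authors' deposited table (edgeR adjusted p = 0.328). Ndufa5 had one of the lowest in KO_VILIhigh lungs, -0.24 in the authors' deposited table (edgeR adjusted p = 1).

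The X chromosome encodes 3 of the subunits. Cox7b, of complex IV, had 47.4 CPM in KO_VILIhigh and in KO_VILIlow, 47.7 CPM in WT_VILI, 46.4 CPM in KO_noVILI and 45.7 CPM in WT_noVILI lungs, so the groups with high and low Xist hardly differed. Ndufb11, of complex I, had 63.1, 58.4, 54.5, 61.9 and 58.4 CPM in the same groups. Ndufa1, also of complex I, had 26.0 CPM in KO_VILIhigh and 26.3 CPM in KO_VILIlow, against 20.3 CPM in WT_VILI, 20.6 CPM in KO_noVILI and 19.4 CPM in WT_noVILI lungs. None of these was called in any of the authors' deposited tables.

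Complex II, succinate dehydrogenase, also belongs to the citric acid cycle. Its catalytic flavoprotein Sdha had 179 CPM in KO_VILIhigh, 178 CPM in KO_VILIlow, 167 CPM in WT_VILI, 201 CPM in KO_noVILI and 218 CPM in WT_noVILI lungs, and all 3 ventilated groups lay below both unventilated ones. The log2 fold change of WT_VILI against WT_noVILI was -0.38 in the authors' deposited table (SE 0.14, as implied by the deposited p-value), with an edgeR adjusted p = 0.0637. The iron-sulfur subunit Sdhb had 61.6 CPM in KO_VILIhigh, 62.6 CPM in KO_VILIlow, 51.1 CPM in WT_VILI, 53.4 CPM in KO_noVILI and 54.5 CPM in WT_noVILI lungs, high in both ventilated KO groups. Its log2 fold changes against WT_VILI were 0.27 and 0.29 in KO_VILIhigh and KO_VILIlow in the authors' deposited tables (edgeR adjusted p = 1 in both). Sdhc and Sdhd, the membrane anchors, kept within narrow ranges: 65.8, 62.3, 64.2, 60.7 and 69.1 CPM for Sdhc, and 78.5, 77.2, 71.1, 75.1 and 71.2 CPM for Sdhd, in KO_VILIhigh, KO_VILIlow, WT_VILI, KO_noVILI and WT_noVILI lungs.

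Complex III, the cytochrome bc1 complex, summed over 8 subunits to 517 CPM in KO_VILIhigh, 483 CPM in KO_VILIlow, 442 CPM in WT_VILI, 455 CPM in KO_noVILI and 457 CPM in WT_noVILI lungs. Against WT_VILI, 7 of 8 subunits were higher in KO_VILIhigh (median 0.25) and 8 of 8 in KO_VILIlow (median 0.08), in the authors' deposited tables. The Rieske iron-sulfur protein Uqcrfs1, named for its role after its values were seen, had 93.2 CPM in KO_VILIhigh, 88.9 CPM in KO_VILIlow, 78.2 CPM in WT_VILI, 71.1 CPM in KO_noVILI and 76.3 CPM in WT_noVILI lungs. Its highest values were those of the ventilated KO groups. The hinge protein Uqcrh, chosen after its values were seen, had the largest decrease of complex III in WT_VILI against WT_noVILI lungs. Its log2 fold change there was -0.34 in the authors' deposited table (edgeR adjusted p = 0.188).

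ATP synthase, which makes ATP from the proton gradient, summed over 15 subunits to 1653 CPM in KO_VILIhigh, 1647 CPM in KO_VILIlow, 1503 CPM in WT_VILI, 1620 CPM in KO_noVILI and 1659 CPM in WT_noVILI lungs. WT_VILI was the lowest group for 9 of the 15, and no subunit varied by 1.5-fold or more between groups. Against WT_VILI, 13 of 15 were higher in KO_VILIhigh (median 0.15) and 14 of 15 in KO_VILIlow (median 0.18), in the authors' deposited tables. The catalytic subunit Atp5b, named for its role after its values were seen, had 506 CPM in KO_VILIhigh, 488 CPM in KO_VILIlow, 457 CPM in WT_VILI, 496 CPM in KO_noVILI and 506 CPM in WT_noVILI lungs. The membrane ring subunit c is encoded by 3 genes that give the same mature protein. Atp5g1 had 11.5, 10.1, 8.63, 9.04 and 7.98 CPM, Atp5g2 had 21.9, 19.5, 16.3, 18.7 and 19.0 CPM, and Atp5g3 had 129.5, 118, 105, 112 and 111 CPM in KO_VILIhigh, KO_VILIlow, WT_VILI, KO_noVILI and WT_noVILI lungs. All 3 were highest in KO_VILIhigh and next highest in KO_VILIlow. Their log2 fold changes of KO_VILIhigh against WT_VILI were 0.41, 0.43 and 0.30 in the authors' deposited table (edgeR adjusted p = 1, 0.875 and 0.904).

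Complex IV, cytochrome c oxidase, held the one gene that passed the threshold. Its 15 subunits summed to 774 CPM in KO_VILIhigh, 752 CPM in KO_VILIlow, 658 CPM in WT_VILI, 698 CPM in KO_noVILI and 686 CPM in WT_noVILI lungs. Against WT_VILI, 12 of 15 were higher in KO_VILIhigh (median 0.22) and 13 of 15 in KO_VILIlow (median 0.22), in the authors' deposited tables. Subunit 4 has a widespread form, Cox4i1, and a form enriched in lung, Cox4i2, which is known to be induced by low oxygen and to alter the oxygen response of the enzyme. Cox4i2 (Entrez 84682) had 29.5 CPM in KO_VILIhigh, 31.6 CPM in KO_VILIlow, 35.4 CPM in WT_VILI, 30.7 CPM in KO_noVILI and 23.8 CPM in WT_noVILI lungs. WT_noVILI was lowest and WT_VILI highest, with the 3 KO groups between them. In the authors' deposited table its log2 level rose by 0.57 in WT_VILI against WT_noVILI lungs (implied SE 0.195, edgeR p = 0.00349, adjusted p = 0.0412). Its log2 fold change in KO_noVILI against WT_noVILI lungs was 0.37 in the authors' deposited table (edgeR adjusted p = 0.293). Within KO lungs the derived differences with ventilation were -0.06 for KO_VILIhigh and 0.04 for KO_VILIlow (adjusted p = 1 in both). The difference of differences was -0.63 for KO_VILIhigh (adjusted p = 0.569) and -0.53 for KO_VILIlow (adjusted p = 1), so a difference between genotypes in this response was not shown.

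The widespread partner Cox4i1 had 200 CPM in KO_VILIhigh, 175 CPM in KO_VILIlow, 156 CPM in WT_VILI, 175 CPM in KO_noVILI and 174 CPM in WT_noVILI lungs, so it was lowest where Cox4i2 was highest. Its log2 fold change in WT_VILI against WT_noVILI lungs was -0.16 in the authors' deposited table (edgeR adjusted p = 0.729). Cox4i1 was among 7 of 15 complex IV subunits, and 47 of all 89 genes, that had WT_VILI as the lowest group. Ndufa4l2, a relative of the Ndufa4 subunit that is known to be induced by low oxygen, was also highest in WT_VILI. Its levels were 16.5 CPM in KO_VILIhigh, 16.4 CPM in KO_VILIlow, 22.4 CPM in WT_VILI, 18.7 CPM in KO_noVILI and 16.4 CPM in WT_noVILI lungs. Its log2 fold change was 0.45 in WT_VILI against WT_noVILI lungs in the authors' deposited table (edgeR adjusted p = 0.215). Against WT_VILI it was -0.44 in KO_VILIhigh (adjusted p = 0.886) and -0.45 in KO_VILIlow (adjusted p = 1), the lowest values among the respiratory chain genes in both of the authors' deposited tables.

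**Figure D3:**
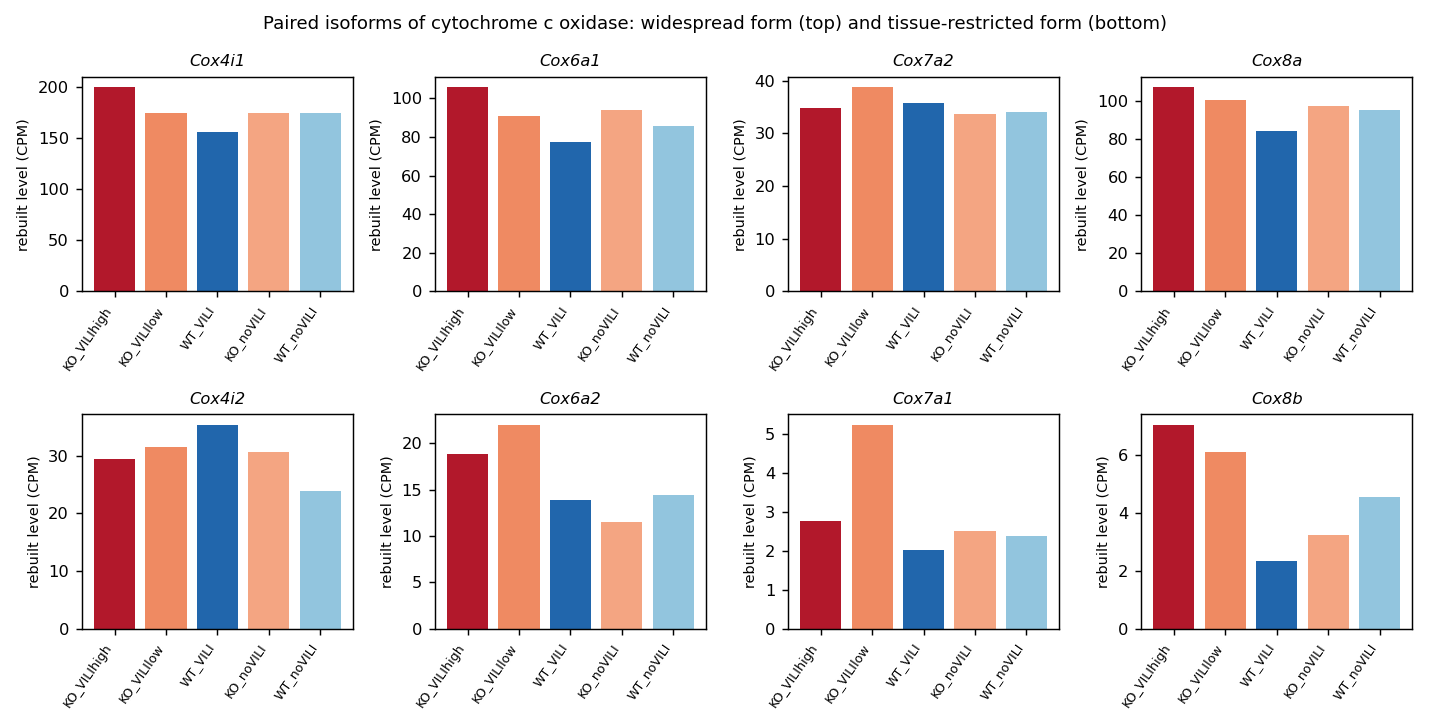
Rebuilt levels (CPM, vertical axes from 0) of 4 widespread complex IV subunits (top) and their tissue-restricted partners (bottom) in the 5 groups; each bar is a group level rebuilt from the deposited tables, with no spread per library. Cox4i2 is highest in WT_VILI (35.4 CPM), where Cox4i1 is lowest (156 CPM), as are Cox6a1 and Cox8a. The muscle forms Cox6a2, Cox7a1 and Cox8b are highest in a ventilated KO group.

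Among the heart and muscle forms of complex IV, Cox8b had the largest fold change of the chain in both ventilated KO groups. Cox8b (Entrez 12869), a form of heart, muscle and brown fat in rodents, had 7.06 CPM in KO_VILIhigh, 6.11 CPM in KO_VILIlow, 2.33 CPM in WT_VILI, 3.22 CPM in KO_noVILI and 4.56 CPM in WT_noVILI lungs. Both ventilated KO groups lay above the other 3. Its log2 fold changes were 1.60 in KO_VILIhigh (SE 0.54, edgeR adjusted p = 0.123) and 1.39 in KO_VILIlow (SE 0.49, adjusted p = 0.233) against WT_VILI in the authors' deposited tables. It was also the lowest gene of the chain in WT_VILI against WT_noVILI lungs, at -0.97 in the authors' deposited table (edgeR adjusted p = 0.393), and stood at -0.50 in KO_noVILI against WT_noVILI lungs (adjusted p = 0.951). The derived difference of differences was 2.10 for KO_VILIhigh (SE 0.72, Benjamini-Hochberg adjusted p = 0.138) and 1.89 for KO_VILIlow (SE 0.69, adjusted p = 0.294). Cox7a1 (Entrez 12865) had 2.78 CPM in KO_VILIhigh, 5.25 CPM in KO_VILIlow, 2.01 CPM in WT_VILI, 2.52 CPM in KO_noVILI and 2.37 CPM in WT_noVILI lungs, high in KO_VILIlow. Its log2 fold change there was 1.38 against WT_VILI in the authors' deposited table (edgeR adjusted p = 0.163). Cox6a2 (Entrez 12862) had 18.8 CPM in KO_VILIhigh, 22.0 CPM in KO_VILIlow, 13.9 CPM in WT_VILI, 11.5 CPM in KO_noVILI and 14.4 CPM in WT_noVILI lungs. It was highest in the ventilated KO groups, with log2 fold changes of 0.44 and 0.67 in KO_VILIhigh and KO_VILIlow in the authors' deposited tables (edgeR adjusted p = 0.945 and 0.515).

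Like these isoforms, markers of heart muscle stood highest in the ventilated KO groups, but the order of the groups differed in part. The summed level of 18 cardiac muscle markers was 1267 CPM in KO_VILIhigh, 1788 CPM in KO_VILIlow, 771 CPM in WT_VILI, 498 CPM in KO_noVILI and 1123 CPM in WT_noVILI lungs. Of the 17 markers at the minimum, the authors' deposited tables called 2 higher in KO_VILIhigh (median log2 fold change 0.82), 15 higher in KO_VILIlow (median 1.41), none in WT_VILI (median -0.51) and 11 lower in KO_noVILI (median -1.29). Of all genes, 2.22%, 1.33%, 13.5% and 4.85% were called in those comparisons in either direction. Cox6a2 had the same order of the 5 groups as these summed markers. Cox8b was higher in KO_VILIhigh than in KO_VILIlow, and Cox7a1 did not share the low cardiac level of KO_noVILI. None of 10 skeletal muscle markers reached the minimum. They summed to 25.4 CPM in KO_VILIhigh, 33.2 CPM in KO_VILIlow, 15.2 CPM in WT_VILI, 11.7 CPM in KO_noVILI and 10.8 CPM in WT_noVILI lungs. Fat markers, 9 in number, summed to 120 CPM in KO_VILIhigh, 95.5 CPM in KO_VILIlow, 55.9 CPM in WT_VILI, 25.7 CPM in KO_noVILI and 60.0 CPM in WT_noVILI lungs. The part of heart muscle or fat in the levels of the respiratory chain was not tested. The widespread partners Cox6a1 and Cox8a were also highest in KO_VILIhigh and lowest in WT_VILI: Cox6a1 had 106, 91.1, 77.6, 93.9 and 85.9 CPM, and Cox8a had 107, 100.3, 84.0, 97.5 and 95.1 CPM in KO_VILIhigh, KO_VILIlow, WT_VILI, KO_noVILI and WT_noVILI lungs. Cox7a2 had 34.8, 38.8, 35.9, 33.6 and 34.0 CPM in the same groups. Their log2 fold changes in KO_VILIhigh against WT_VILI lungs were 0.45 for Cox6a1, 0.35 for Cox8a and -0.05 for Cox7a2 in the authors' deposited table (edgeR adjusted p = 0.567, 0.912 and 1).

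Of the 11 assembly factors and other genes, 7 were higher in KO_VILIhigh (median 0.13) and 5 in KO_VILIlow (median -0.04) against WT_VILI lungs, in the authors' deposited tables. WT_VILI was the lowest group for 2 of the 11. No test between these genes and the subunits was made. Atp5s, named as a coupling factor of ATP synthase, had 6.71 CPM in KO_VILIhigh, 8.16 CPM in KO_VILIlow, 6.12 CPM in WT_VILI, 6.70 CPM in KO_noVILI and 9.54 CPM in WT_noVILI lungs, highest in WT_noVILI. Its log2 fold changes were -0.64 in WT_VILI (edgeR adjusted p = 0.163) and -0.51 in KO_noVILI (adjusted p = 0.373) against WT_noVILI in the authors' deposited tables. Atp5sl, a factor needed for complex I assembly, had 18.1, 17.8, 21.1, 18.4 and 24.3 CPM in KO_VILIhigh, KO_VILIlow, WT_VILI, KO_noVILI and WT_noVILI lungs. Its log2 fold changes were -0.40 in KO_noVILI against WT_noVILI lungs (edgeR adjusted p = 0.271) and -0.24 in KO_VILIlow against WT_VILI lungs (adjusted p = 1) in the authors' deposited tables. Ndufaf6, a complex I assembly factor, was among the lowest in KO_VILIlow, at -0.37 in the authors' deposited table (edgeR adjusted p = 1), with 4.77, 2.96, 3.82, 3.97 and 4.25 CPM in the 5 groups in the same order.

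A deposited fold change of exactly 0 occurred in one table for 5 of the 89 genes. These were Cox6b2, Ndufaf3 and Ndufc1 in KO_noVILI against WT_noVILI, Cox7c in WT_VILI against WT_noVILI and Ndufa3 in KO_VILIhigh against WT_VILI, in the authors' deposited tables. An exact 0 may not be an estimate, so those entries were left out of counts of direction and medians. Of the genes below the minimum, Ndufb4 had 0.899 CPM in KO_VILIhigh, 2.17 CPM in KO_VILIlow, 2.76 CPM in WT_VILI, 1.80 CPM in KO_noVILI and 1.39 CPM in WT_noVILI lungs. Cox7b2 and the testis form Cox8c lay below 2 CPM in every group.

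Neighbouring mitochondrial pathways held 0 called genes in either ventilated KO group, where 2.22% (KO_VILIhigh) and 1.33% (KO_VILIlow) of all genes were called, so lists of this size would hold few at that share. Of 12 fatty acid oxidation genes, 11 were higher in each of the 2 ventilated KO groups (medians 0.29 in KO_VILIhigh and 0.27 in KO_VILIlow), with none called, in the authors' deposited tables. In WT_VILI against WT_noVILI lungs the median of this list was -0.22 in the authors' deposited table, and Hadh, an enzyme of the beta-oxidation spiral, fell by 0.50 (edgeR adjusted p = 0.0156). Hadh was the 1 gene of the 12 called there, where 6.4% of all genes were called lower. Of 16 genes of the citric acid cycle and pyruvate dehydrogenase, 14 were higher in each ventilated KO group (medians 0.15 and 0.12) and none was called in any of the authors' deposited tables. The 12 other chain components such as cytochrome c had medians of 0.15 in KO_VILIhigh and 0.14 in KO_VILIlow, while 23 other assembly factors had medians of 0.02 and 0.01, in the authors' deposited tables, with no gene called. Mitochondrial protein import, 17 genes, had medians of 0.14 and 0.12 and no call in the authors' deposited tables. Among 74 mitochondrial ribosomal protein genes the medians were 0.10 and 0.08 in the ventilated KO groups, and one gene was called: Mrpl24 fell by 0.57 in WT_VILI against WT_noVILI lungs in the authors' deposited table (edgeR adjusted p = 0.00698). That is a smaller share than the 6.4% of all genes called lower in that comparison.

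**Figure D4:**
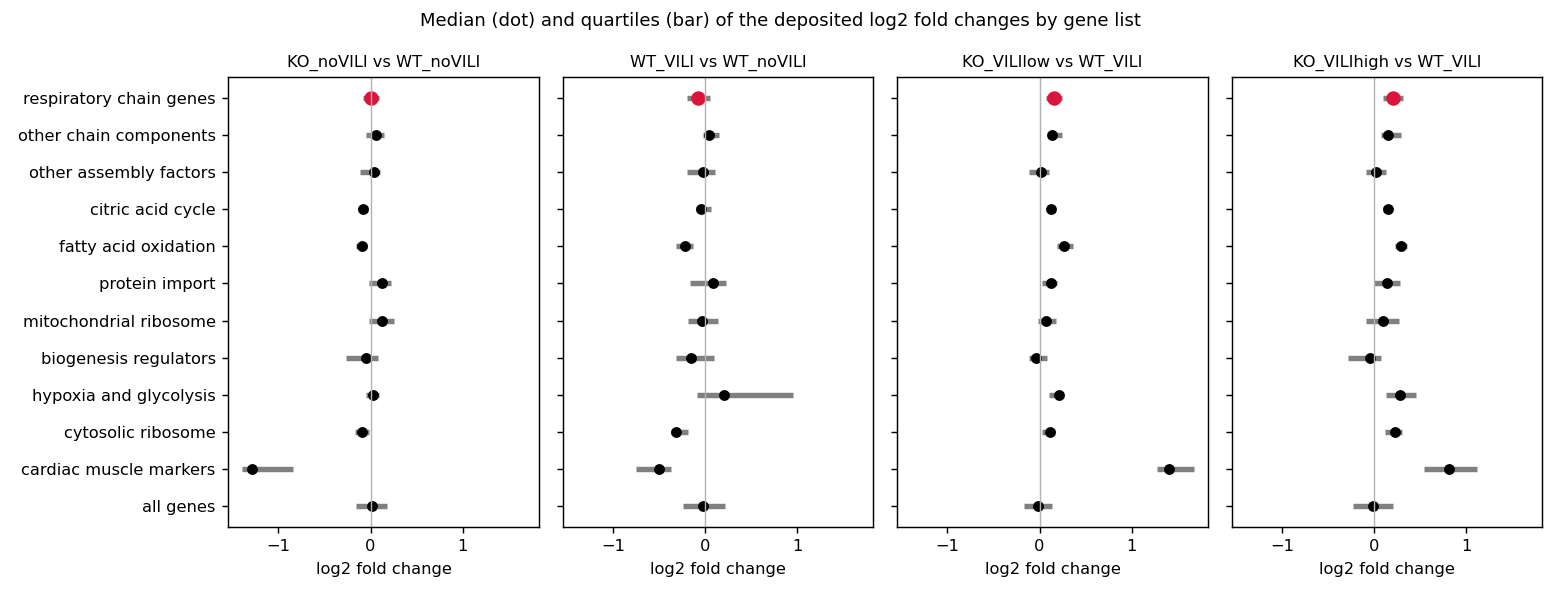
Median (dot) and quartiles (bar) of the deposited log2 fold changes (horizontal axes) of the respiratory chain genes (red), related gene lists, cardiac muscle markers and all genes (rows), in the 4 comparisons. The respiratory chain medians are 0.0034, -0.08, 0.16 and 0.21 from left to right, while the cardiac muscle medians are -1.29, -0.51, 1.41 and 0.82.

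A regulator of mitochondrial biogenesis and several genes of low oxygen responses rose with ventilation in WT lungs. Ppargc1a, the coactivator PGC-1alpha that drives respiratory chain genes, had 27.4 CPM in KO_VILIhigh, 21.2 CPM in KO_VILIlow, 20.7 CPM in WT_VILI, 6.12 CPM in KO_noVILI and 7.62 CPM in WT_noVILI lungs. It rose by 1.44 in WT_VILI against WT_noVILI lungs in the authors' deposited table (edgeR adjusted p = 0.000317), the one call among 13 such regulators, a share near the 7.12% of all genes called higher there. It also rose in the derived contrasts of KO_VILIhigh (2.16, adjusted p = 0.00324) and KO_VILIlow (1.79, adjusted p = 0.0476) against KO_noVILI. Of 14 hypoxia-inducible and glycolytic genes, 5 rose in WT_VILI against WT_noVILI lungs in the authors' deposited table, where 7.12% of all genes were called higher. In the authors' deposited table they include Pdk4, which restrains pyruvate dehydrogenase (2.57, edgeR adjusted p = 1.56e-53), the hexokinase Hk2 (2.17, adjusted p = 6.95e-19), the peptide hormone Adm (2.43, adjusted p = 7.89e-13) and the glucose carrier Slc2a1 (1.07, adjusted p = 7.81e-09). Adm and Slc2a1 rose further in KO_VILIhigh against WT_VILI lungs, by 1.45 and 0.97 in the authors' deposited table (edgeR adjusted p = 1.17e-05 and 0.0068). Gapdh, in the same list, was listed at 1.47 CPM in WT_noVILI lungs, and is known for its many pseudogenes.

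Cytosolic ribosomal protein genes, abundant genes outside mitochondria, had medians of the same sign as the chain in the 3 comparisons with ventilated lungs. Their median was 0.22 in KO_VILIhigh and 0.11 in KO_VILIlow against WT_VILI, -0.31 in WT_VILI against WT_noVILI and -0.09 in KO_noVILI against WT_noVILI lungs, in the authors' deposited tables. Of 75 such genes, 12 fell in WT_VILI lungs in the authors' deposited table, where 6.4% of all genes were called lower; Rpl4 had the smallest p-value of them (-0.48, edgeR adjusted p = 0.00408). Rps3a1 was called lower in KO_VILIhigh, KO_VILIlow and KO_noVILI lungs, and Rps2 in KO_noVILI lungs, in the authors' deposited tables. Blood cell markers differed between the same groups. Neutrophil markers, 11 in number, summed to 1251 CPM in KO_VILIhigh, 882 CPM in KO_VILIlow, 678 CPM in WT_VILI, 181 CPM in KO_noVILI and 174 CPM in WT_noVILI lungs, and red blood cell markers to 2959, 3247, 902, 5756 and 3615 CPM in the same groups. Their part in the levels of the respiratory chain was not tested.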

How the data were processed

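Whole lung RNA of Cldn4 KO and WT mice was sequenced from TruSeq libraries. Bowtie 1.1.2 alignment to mm9, and R 3.0.1 with edgeR, are named in the submitters' processing notes; the count method, gene filter and test settings are not given in the sources used here. The authors deposited 4 tables with log2 fold changes (headed logFC), log2 CPM, p-values and FDR per gene, and 0 columns of values per library. Base 2 is assumed, since the headers do not state it. Depth per library is therefore unknown. The deposited p-values rest on 2 libraries per group, whose spread may be technical, and how edgeR estimated that spread is not given.

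Calls were deposited FDR values under 0.05. The labels list WT_noVILI under every file, but the ventilated KO tables were read against WT_VILI. The member genes' WT level rebuilt from the KO_VILIhigh and KO_VILIlow tables differed from WT_VILI by a median of 0.0374 and 0.0433 log2 after centring, against 0.0928 and 0.0998 from WT_noVILI. Group CPM were rebuilt from the WT_VILI table, taking the mean CPM as that of both groups, and KO levels as WT levels times the deposited fold, since the authors' tables were normalised separately. Derived contrasts sum or subtract deposited log2 folds, with each SE taken from fold and p-value (normal approximation), over 13305 genes with Benjamini-Hochberg adjustment; where WT libraries cancel this is conservative. A run on simulated data drew normal errors of known size, so it could check the arithmetic but not the normal approximation to edgeR p-values.

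Named genes were every called member, the 3 highest and 3 lowest in each table, isoforms, Sdh genes, X-linked members and exact 0 folds; Ndufa6, Ndufs1, Uqcrfs1, Uqcrh and Atp5b fall outside this rule and were chosen after their values were seen. Members and lists were chosen with earlier results of these data known. Promoters are RefSeq's, on GRCm38.p6. The tools were scipy 1.17.1, pandas 2.3.3 and numpy 2.4.6 under Python 3.11.15, with matplotlib 3.10.9 for figures. Alternatives varied the threshold, adjustment, abundance minimum, centring, members and SE.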

Additional observations from a re-analysis of the deposited data

How the results depend on the processing

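Of 26 alternative counts of called genes, 20 repeated a reported count of 0, and the only count above 0 changed under every alternative. Of 54 alternative medians, 51 did not reverse in sign and moved by less than the standard deviation of the fold changes across genes. That bound is wide, since it is a spread over genes and not of the median. Among the 51, the KO_noVILI median became 0 when exact 0 folds were kept. In WT_VILI against WT_noVILI, the count of 1 became 0 at a deposited FDR of 0.01 and under Bonferroni, and 2 (Cox4i2 and Sdha) at an FDR of 0.1 and with Benjamini-Hochberg adjustment over genes at the minimum, where fewer genes are tested. In KO_VILIlow against WT_VILI, 1 gene (Ndufs5) was called at an FDR of 0.1. For the KO_VILIhigh difference of differences, 1 gene (Cox8b, adjusted p = 0.0316) was called with standard errors from genes of similar abundance. The KO_noVILI median of 0.0034 reversed to -0.0135 with a log2 CPM of at least 4 and without X-linked genes, and to -0.0125 when centred on all genes; the cause was not tested.

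The median implied standard error was 0.257 log2 in KO_VILIhigh, 0.207 in KO_VILIlow, 0.181 in WT_VILI and 0.173 in KO_noVILI, and the 95% interval lay within 1 log2 of no change for 71 of 88, 78 of 88, 78 of 86 and 81 of 85 genes. Shifts as small as the medians reported are below what these tests resolve for single genes. No paired analysis was possible because the tables hold no values per library, and for the same reason no library was left out.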
